A study of Mus musculus with 4 samples.

Results

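The genes of the proteasome were followed in droplet RNA counts from single mouse muscle cells that carry a Pax7-nGFP reporter, in which a nuclear GFP marks cells that use the promoter of Pax7, the transcription factor of muscle stem cells. Members were all gene symbols formed from Psma, Psmb, Psmc, Psmd, Psme or Psmg and a number, whatever their level: 47 of the 25804 symbols in the count files. They comprised 7 alpha subunits and 7 constitutive beta subunits of the core particle, 6 ATPase and 11 non-ATPase subunits of the regulatory cap, 7 assembly chaperones, 4 activators, 3 immunoproteasome subunits and 2 subunits known from single tissues. The 31 constitutive core and cap subunits are called the constitutive genes here.

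The proteasome is the barrel-shaped protease that degrades ubiquitin-tagged proteins. Rings of alpha subunits gate the barrel, beta subunits line it, and the catalytic sites lie on Psmb5, Psmb6 and Psmb7. A regulatory cap of ATPases (Psmc) and scaffold, receptor and deubiquitinating subunits (Psmd) binds and unfolds the substrate. In immune cells and under interferon, Psmb8, Psmb9 and Psmb10 take the places of Psmb5, Psmb6 and Psmb7 to form the immunoproteasome, which favours peptides suited to MHC class I presentation. In muscle, the proteasome is known for protein breakdown during atrophy, and satellite cells need it to survive and to divide.

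Each group was 1 droplet library (10x Genomics 3' v3.1), so there were no replicates. The MPC library came from Pax7-nGFP myoblasts of a male mouse aged 16 weeks, kept as myoblasts over 2 passages and moved for another 5 into medium containing 5 µM Forskolin, 5 µM Repsox and 3 µM CHIR. The myoblast library came from Pax7-nGFP cells of a male mouse aged 16 weeks at passage 2, in a medium with 10 ng/ml FGF, and was not sorted for GFP. The sample labels give 10 ng/ml FGF for the MPC library too. The ASC library held GFP-positive cells sorted from 17 pooled tibialis anterior muscles of male and female Pax7-nGFP mice aged 18 to 24 weeks, 3 days after injury with 10 µM cardiotoxin. The fiSC library held GFP-positive cells sorted from uninjured limb muscle pooled from 3 male Pax7-nGFP mice aged 13 weeks. No comparison between groups could therefore be tested, there is no p-value, and the group cannot be told apart from the animals, their age and sex, the cell handling and the library. All intervals are 95% and cover counting error only.

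After filtering, 9035 MPC, 2353 myoblast, 6441 ASC and 2185 fiSC cells remained, with median depths of 13206, 22832, 19844 and 8760 UMIs (unique molecules) in the same order. Of the cell barcodes retained, MPC shared 11 with myoblast and 18 with ASC, and the other pairs of libraries shared 2 to 4. Of all barcodes before filtering, MPC shared 164 with myoblast and 27 with ASC, and the other pairs shared 4 to 8. The source of the shared barcodes was not tested. Cells were clustered within each library without the member genes, and the progenitor-like class held 4966 MPC, 1731 myoblast, 2021 ASC and 2127 fiSC cells. The ASC library held cells that go against its GFP gate: 31.4% of its cells were progenitor-like and 46.7%, or 3010 cells, were macrophage-like, while 97.3% of fiSC cells were progenitor-like. In the ASC library, Pax7 stood at 3.5 CPM (UMIs of a gene per class, scaled to a common total) in macrophage-like cells and 119 CPM in progenitor-like cells, and Lyz2, a macrophage lysozyme, at 14634 and 90.3 CPM. Pax7 itself reached 917 CPM in MPC, 1363 CPM in myoblast and 838 CPM in fiSC progenitor-like cells. Differentiation-like cells, named from muscle structural genes, were found in the MPC library (1266 cells) and the myoblast library (314 cells). A log2 ratio is that of CPM plus 5, and a gene met the size rule when this ratio reached 2-fold and the higher class had 10 CPM or more.

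The proteasome genes took a different share of the messenger RNA in each kind of progenitor-like cell. The 31 constitutive genes together made up 4678 CPM in MPC, 6449 CPM in myoblast, 7580 CPM in ASC and 2818 CPM in fiSC cells. The sum was thus highest in the injured-muscle cells and lowest in cells from uninjured muscle, and MPC stood between fiSC and myoblast. In single cells, the median share of UMIs from these genes was 0.464% (5th to 95th percentile 0.284 to 0.658%) in MPC and 0.647% (0.511 to 0.824%) in myoblast cells. It was 0.739% (0.415 to 0.971%) in ASC and 0.264% (0.112 to 0.470%) in fiSC cells. The order also held between clusters: the progenitor-like clusters ran from 4544 to 4891 CPM in MPC, 6316 to 7103 CPM in myoblast, 6250 to 8794 CPM in ASC and 2213 to 3420 CPM in fiSC. Only the ranges of myoblast and ASC overlapped.

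**Figure D1:**
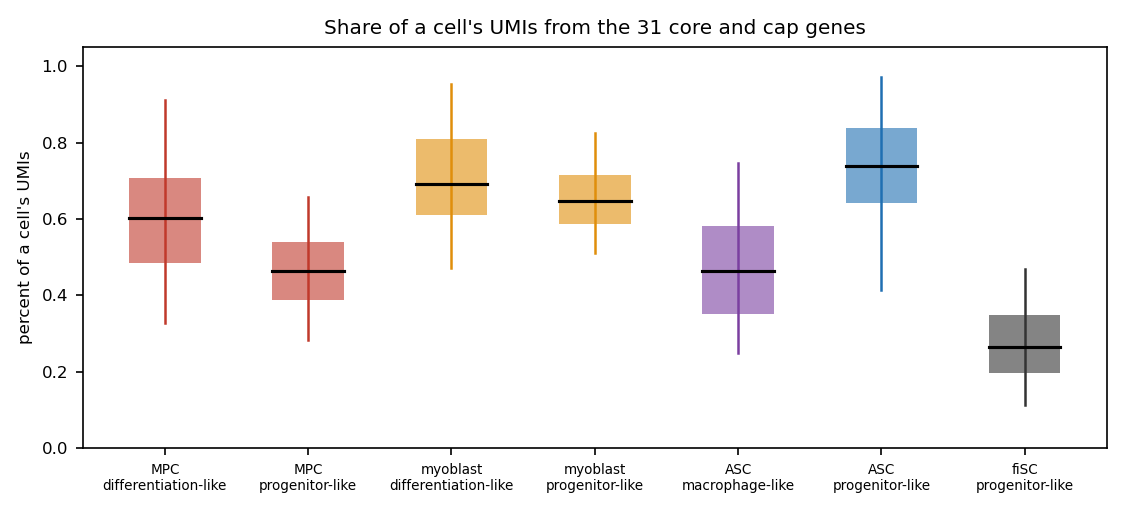
Share of each cell's UMIs that came from the 31 constitutive core and cap genes (percent), by library and class; the line is the median, the box the middle 50% of cells and the whiskers the 5th to 95th percentile, over cells of 1 library that are not replicates. The progenitor-like medians were 0.464% in MPC, 0.647% in myoblast, 0.739% in ASC and 0.264% in fiSC.

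Gene by gene the order was much the same. Of the 31 constitutive genes, 28 were lowest in fiSC among the 4 progenitor-like classes, and the other 3 (Psma3, Psmd4 and Psmd11) were lowest in MPC. ASC had the highest level of 22, among them all 14 core subunits, and myoblast of 8, all in the cap (Psmc1, Psmc2, Psmc6, Psmd1, Psmd2, Psmd6, Psmd8 and Psmd14). Psmd8 was nearly level in these 2 classes, with 261 CPM in myoblast and 259 CPM in ASC cells. Psmd11 alone was highest in fiSC.

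**Figure D2:**
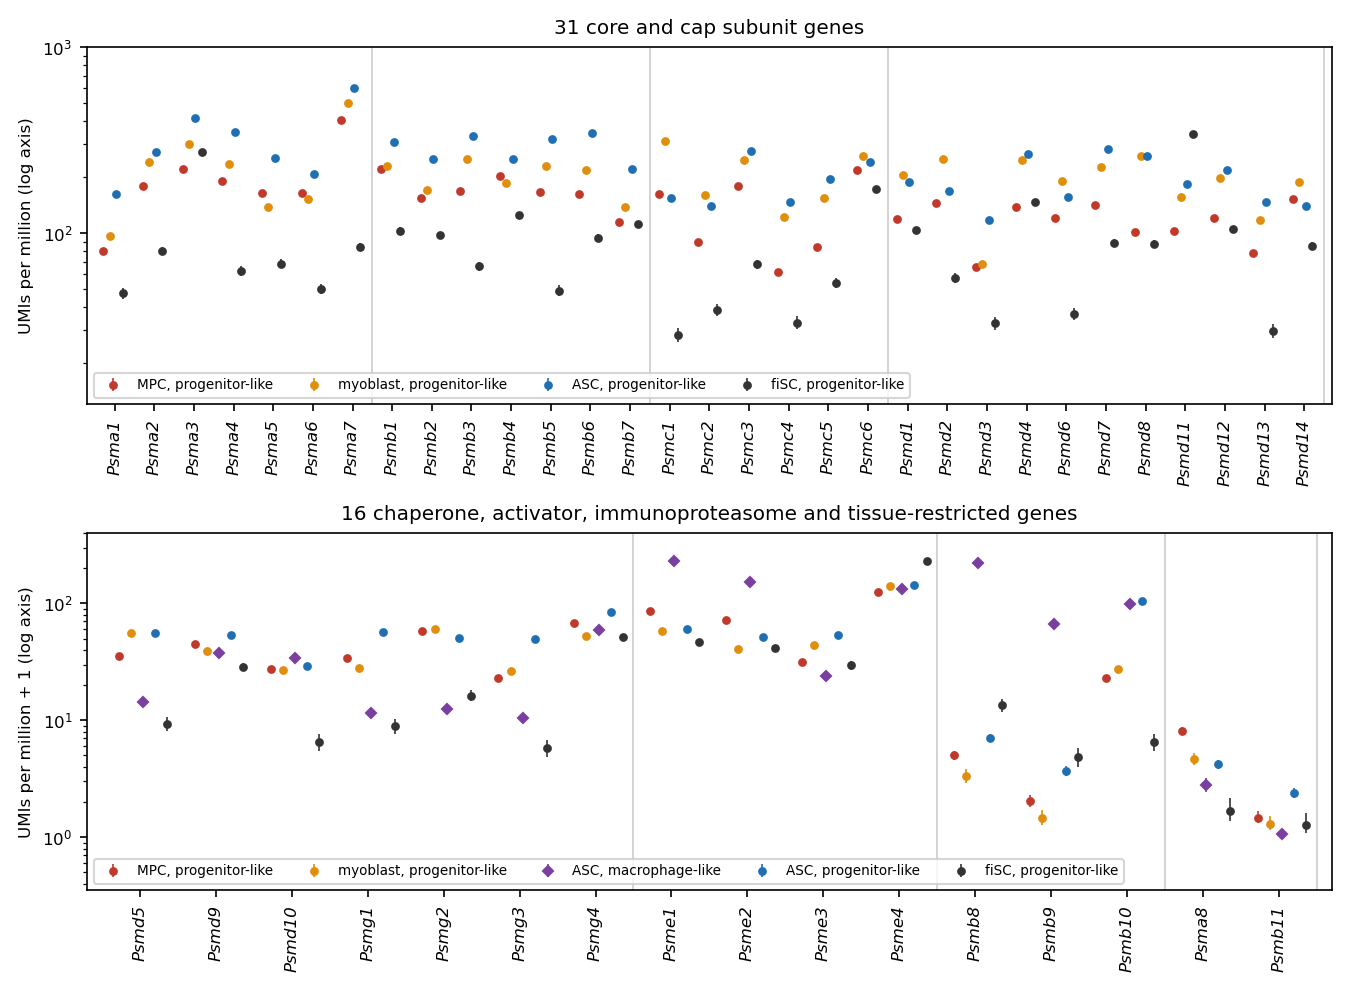
Level of each member gene (UMIs scaled to CPM, log axes, CPM + 1 in the lower panel) by role, with exact 95% Poisson intervals that cover counting error only. The upper panel holds the 31 core and cap genes in progenitor-like cells of the 4 libraries, where fiSC is lowest for 28 genes and highest for Psmd11; the lower panel holds the other 16 members and adds the macrophage-like cells of ASC, which are highest for Psmb8 and Psmb9.

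ASC against fiSC sets satellite cells after injury beside satellite cells from uninjured muscle. The constitutive sum was 2.69-fold higher in ASC (interval 2.67 to 2.71). Of the 31 genes, 23 met the size rule as higher and 0 as lower, and their median log2 ratio was 1.70, beside 0.01 for all 8965 genes measured. Of all genes measured, 24% met the rule as higher and 24.3% as lower. At 1.5-fold, 29 of the 31 were higher and 1 lower, against 34.3% and 34.5% of all genes. Counting all 44 members measured, 29 met the rule as higher and 0 as lower, and the 3 members not measured were Psmb9, Psma8 and Psmb11. Other traits of these 2 classes differed as well. The summed level of 20 G2/M genes was 2719 CPM in ASC and 37.8 CPM in fiSC cells, and a sum of 12 immediate early and heat shock genes, chosen after values were seen, was 4053 CPM in ASC and 27399 CPM in fiSC cells. Median depth was 47103 UMIs per ASC cell and 8723 per fiSC cell. The part of the immediate early genes and of depth in the result was not tested. Among cells without G2/M signal (232 ASC and 2070 fiSC cells), the counts were again 23 of the 31 genes higher and 0 lower, and the median log2 ratio was 1.58. Mki67, a G2/M gene, still stood at 105 CPM in these ASC cells and 3.04 CPM in these fiSC cells. This split therefore did not match the 2 classes for cycling, and the part of the cell cycle was not tested.

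In the core, alpha subunits summed to 2264 CPM in ASC and 665 CPM in fiSC cells, and beta subunits to 2030 and 646 CPM. The widest difference was in Psma7, an alpha-ring subunit, at 604 CPM in ASC and 83.9 CPM in fiSC cells, 7.20-fold higher (6.85 to 7.57). Psmb5, which carries the chymotrypsin-like site, had 320 CPM in ASC and 49.1 CPM in fiSC cells, 6.52-fold higher (6.11 to 6.97). Psma4 (349 CPM in ASC, 62.7 CPM in fiSC) and Psmb3 (331 and 66.2 CPM) came next. Thus 1 structural and 1 catalytic subunit led the core, and 6 of 7 alpha and 5 of 7 beta subunits met the rule as higher. Psma3 had the smallest difference among alpha subunits, with 415 CPM in ASC and 273 CPM in fiSC cells, 1.52-fold higher. Psmb7, which carries the trypsin-like site, had 222 CPM in ASC and 111 CPM in fiSC cells, a log2 ratio of 0.96 that stayed just under the rule.

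In the cap, the 6 ATPases, which unfold the substrate, summed to 1156 CPM in ASC and 394 CPM in fiSC cells, and 5 met the rule as higher. Psmc1 led them with 155 CPM in ASC and 28.4 CPM in fiSC cells, 5.45-fold higher (5.00 to 5.95). Psmc6 did not meet the rule, with 242 CPM in ASC and 172 CPM in fiSC cells, 1.41-fold higher (1.36 to 1.46). The 11 non-ATPase subunits differed less as a group, 2130 CPM in ASC and 1112 CPM in fiSC cells, and 7 met the rule. Psmd13, a scaffold subunit, had 148 CPM in ASC and 29.8 CPM in fiSC cells, 4.95-fold higher (4.55 to 5.40).

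Psmd11 was the exception. This scaffold subunit of the cap lid, known in human embryonic stem cells as the subunit tied to high proteasome activity, had 102 CPM in MPC, 156 CPM in myoblast, 184 CPM in ASC and 339 CPM in fiSC progenitor-like cells. It was 3.32-fold lower in MPC than in fiSC (3.21 to 3.43), 2.17-fold lower in myoblast than in fiSC (2.10 to 2.25) and 1.84-fold lower in ASC than in fiSC (1.79 to 1.89), the last short of the size rule. Psme4, the large single-chain activator that opens the core without ATP, shared this order, with 124 CPM in MPC, 141 CPM in myoblast, 142 CPM in ASC and 230 CPM in fiSC cells. The ASC level of Psme4 was 1.62-fold lower than the fiSC level (1.56 to 1.68), within the rule. The immediate early and heat shock sum named above was also highest in fiSC (2357 CPM in MPC, 2337 CPM in myoblast, 4053 CPM in ASC and 27399 CPM in fiSC cells), and its part in these 2 genes was not tested.

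Assembly chaperones, which pair and order the subunits before the particle closes, were higher in ASC too: 5 of 7 met the rule. Psmg3 had 48.8 CPM in ASC and 4.75 CPM in fiSC cells, 10.3-fold higher (8.35 to 12.8). Psmg1, the partner of Psmg2 in alpha-ring assembly, had 56.3 CPM in ASC and 7.91 CPM in fiSC cells, 7.12-fold higher (6.05 to 8.43). Psmd5, a chaperone of the cap base, had 55.2 CPM in ASC and 8.33 CPM in fiSC cells. Psmg4 showed the smallest difference, 83.9 CPM in ASC and 50.4 CPM in fiSC cells. The activators stayed within the rule: 0 of 4 met it, from Psme3 (the nuclear activator; 52.2 CPM in ASC, 28.5 CPM in fiSC) to Psme4.

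Genes that work with the proteasome did not move as a block in this comparison. Of all genes in this comparison, 24% met the rule as higher and 24.3% as lower. Of 11 partner genes, 4 met the rule as higher in ASC and 2 as lower. Pomp, the chaperone that completes the core, had 282 CPM in ASC and 63.2 CPM in fiSC cells, and Zfand5, an activator of cap function known from muscle atrophy, had 159 CPM in ASC and 855 CPM in fiSC cells. Among the transcription factors and cofactors of proteasome genes, 0 of 11 were higher and 5 were lower in ASC. Nfe2l1 (Nrf1), the factor known to restore proteasome genes after inhibition, had 62.9 CPM in ASC and 100 CPM in fiSC cells, within the rule. The largest differences of that list were in Maff (14 CPM in ASC, 642 CPM in fiSC) and Stat3 (25.9 CPM in ASC, 663 CPM in fiSC). Ubb, a polyubiquitin gene, ran opposite to the subunits, with 592 CPM in ASC and 2409 CPM in fiSC cells. Of 10 shuttle and p97 genes, which carry ubiquitin-tagged proteins to the proteasome, 0 met the rule. Of 4 muscle ubiquitin ligases measured, Fbxo30 was lower in ASC, with a log2 ratio of -2.32.

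The cultured cells stood above fiSC as well, by smaller amounts. These comparisons share the fiSC cells with the one above, so their directions are not independent. Myoblast cells had a constitutive sum 2.29-fold above fiSC (2.27 to 2.31), with 19 of 31 genes higher and 1 lower at a median log2 ratio of 1.31, beside 0.34 for all 9524 genes measured. Of all genes in that comparison, 29% met the rule as higher and 17.2% as lower. MPC cells had a sum 1.66-fold above fiSC (1.64 to 1.68), with 14 of 31 genes higher and 1 lower at a median of 0.82, beside 0.38 for all 9585 genes, of which 29.5% met the rule as higher and 16.1% as lower. At 1.5-fold the counts were 26 higher and 1 lower in myoblast (42.6% and 25% of all genes) and 23 higher and 1 lower in MPC (43.3% and 23.6%). In both, the gene that was lower was Psmd11. Psmc1 gave the widest ratio in each, with 162 CPM in MPC, 311 CPM in myoblast and 28.4 CPM in fiSC cells. That is 5.71-fold in MPC (5.24 to 6.24) and 10.9-fold in myoblast (10.0 to 12), against the 5.45-fold of ASC. G2/M genes were higher in both cultures than in fiSC (20 of 20 met the rule in each), at 3748 CPM in MPC, 2501 CPM in myoblast and 37.8 CPM in fiSC cells.

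MPC against myoblast compares the cells after the small-molecule medium with cultured myoblasts at passage 2. The constitutive sum was 1.38-fold lower in MPC (1.37 to 1.39), and the difference lay mostly in the cap. Of the 31 genes, 0 met the size rule as higher and 1 as lower, and the background was 7.76% higher and 7.85% lower over 9407 genes. At 1.5-fold, 0 were higher and 12 were lower, 4 of 6 ATPases and 8 of 11 non-ATPase subunits, against 16.6% and 15.3% of all genes. Over all retained cells of the 2 libraries, 6 of the 31 genes were lower at 1.5-fold. The median log2 ratio was -0.30 for alpha subunits, -0.26 for beta subunits, -0.83 for ATPases and -0.66 for non-ATPase subunits, beside 0.05 for all genes measured.

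Psmd8, a lid subunit, was the gene past 2-fold, with 101 CPM in MPC and 261 CPM in myoblast cells, 2.57-fold lower (2.50 to 2.65). Psmc1 had 162 CPM in MPC and 311 CPM in myoblast cells, 1.92-fold lower (1.87 to 1.96). Of the other ATPases, Psmc4 was 1.95-fold, Psmc5 1.85-fold and Psmc2 1.80-fold lower in MPC. Psmc6 differed least among ATPases, with 218 CPM in MPC and 259 CPM in myoblast cells. In the core, Psma5 and Psmb4 were slightly higher in MPC, at 165 and 202 CPM against 139 and 186 CPM in myoblast cells. The chaperones summed to 284 CPM in MPC and 281 CPM in myoblast cells, so the assembly genes and the cap genes did not differ alike.

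The cap share puts the same values in 1 measure. It is the share of core and cap UMIs that came from the cap genes, and it was computed after the values above were seen. With all 17 cap genes it was 44.5% in MPC, 52.1% in myoblast, 43.4% in ASC and 53.5% in fiSC progenitor-like cells. Leaving out Psmd11 changed the order: the shares were then 43.3% in MPC, 50.9% in myoblast, 41.9% in ASC and 47.1% in fiSC cells, so fiSC was highest with Psmd11 and below myoblast without it. MPC and myoblast did not overlap over clusters in either form. With all 17 genes the clusters ran from 43.4 to 46.0% in MPC and from 50.3 to 52.8% in myoblast, and without Psmd11 from 42.1 to 44.6% in MPC and from 48.8 to 51.6% in myoblast. The fiSC clusters were spread more widely, from 45.5 to 56.1% with all 17 genes and from 42.1 to 48.9% without Psmd11. They overlapped those of MPC and of myoblast in both forms. Differentiation-like cells had higher shares than progenitor-like cells of the same library: 50.1% against 44.5% in MPC and 55.4% against 52.1% in myoblast, with all 17 genes.

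**Figure D3:**
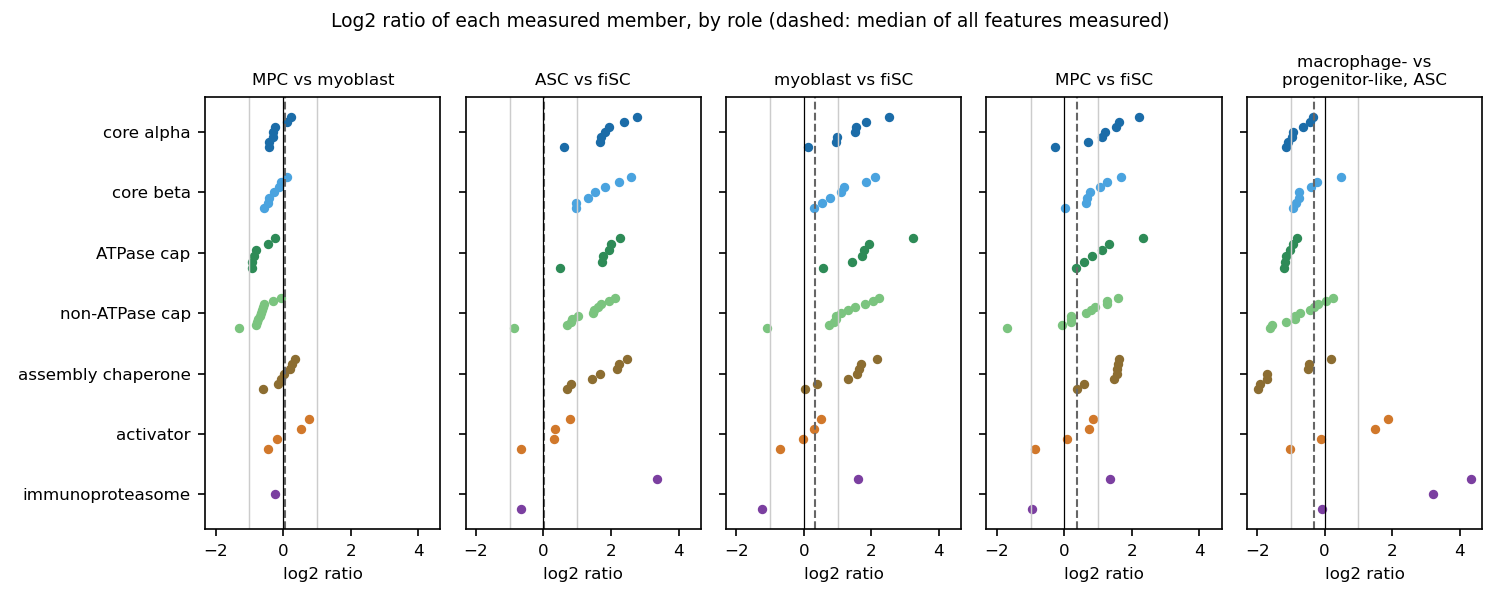
Log2 ratio (CPM + 5) of each measured member, 1 point per gene, by role, in MPC vs myoblast, ASC vs fiSC, myoblast vs fiSC, MPC vs fiSC and macrophage-like vs progenitor-like cells of ASC; grey lines mark 2-fold and the dashed line the median of all genes measured. Core and cap genes lie right of 0 in ASC vs fiSC except Psmd11 (-0.86), and the 12 cap genes past 1.5-fold lie left of 0 in MPC vs myoblast.

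Psme1 and Psme2, which form the activator ring induced by interferon, went the other way from the cap. Psme1 had 85.5 CPM in MPC and 57.6 CPM in myoblast cells, 1.48-fold higher (1.42 to 1.55). Psme2 had 70.7 CPM in MPC and 39.8 CPM in myoblast cells, 1.78-fold higher (1.68 to 1.88). Neither met the 2-fold rule. Of the list of class I presentation genes, 0 of 7 met the rule in this comparison, and of the interferon list 2 of 7 were higher (Jak1, log2 ratio 1.31, and Irf1, 1.14) and 0 lower. The partner genes had 0 past the rule in either direction. Among muscle ubiquitin ligases, 3 of 7 were lower in MPC, led by Fbxo32 (atrogin-1), with 4.35 CPM in MPC and 58.8 CPM in myoblast cells. The shares over all genes were 7.76% higher and 7.85% lower.

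Set beside ASC, both cultures had lower levels of the core. MPC against ASC gave 0 constitutive genes higher and 4 lower (Psmb6, Psmc4, Psmc5 and Psmd8) at a median log2 ratio of -0.80, beside 0.27 for all genes, of which 18.9% met the rule as higher and 7.2% as lower. Myoblast against ASC gave 0 higher and 0 lower at a median of -0.31, beside 0.22 for all genes, of which 14.9% were higher and 4.68% lower. Here the alpha and beta medians were -0.46 and -0.47, and those of ATPases and non-ATPase subunits -0.04 and -0.10.

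Within the cultures, the constitutive sum was higher in differentiation-like cells, more so in MPC. It was 6019 CPM in differentiation-like and 4678 CPM in progenitor-like cells of MPC, 1.29-fold higher (1.28 to 1.30), and 6918 and 6449 CPM in myoblast, 1.07-fold higher (1.06 to 1.08). In MPC the ATPases were 1.46-fold, the non-ATPase subunits 1.44-fold, the beta subunits 1.27-fold and the alpha subunits 1.07-fold higher. In myoblast the ATPases were 1.28-fold higher and the alpha subunits 1.10-fold lower. Few single genes passed 2-fold. In MPC, 1 of 31 genes met the rule in differentiation-like against progenitor-like cells: Psmd8, with 238 and 101 CPM, 2.34-fold higher (2.26 to 2.43). The background there was 8.88% higher and 19.2% lower, and the median log2 ratio was 0.35 beside -0.29 for all genes. In myoblast 0 of 31 met the rule (background 8.58% higher and 17.6% lower), with a median of 0.01 beside -0.31. Psme1 was lower in differentiation-like cells of both libraries: 20.9 against 85.5 CPM in MPC, 4.08-fold lower (3.70 to 4.52), and 28.5 against 57.6 CPM in myoblast, within the rule. Cells with G2/M signal were compared with cells without it in MPC, myoblast and ASC progenitor-like cells. Of the 31 genes, 0 passed 1.5-fold in any of the 3, against a background of 4.06, 6.39 and 0.971% higher and 0.736, 3.26 and 3.76% lower. The medians were 0.10 in MPC, -0.03 in myoblast and 0.08 in ASC, beside 0.05, -0.02 and 0.004 for all genes. In the same order, Mki67 had 482, 317 and 209 CPM with the signal and 40.0, 15.1 and 105 CPM without it. The split was thus weakest in ASC.

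The catalytic pairs separated macrophage-like from progenitor-like cells. Their start regions are shown because each immunoproteasome subunit replaces a constitutive partner and the pair below differed most in its proportions between classes. The windows are the 250 bases before the annotated start, from RefSeq on GRCm38.p6, written 5′ to 3′ on the gene's strand, and capitals mark a motif match. Psmb8 lies at chr17:34197945-34198194 on the plus strand, with a gamma-activated site core (TTCNNNGAA) in capitals. Psmb9 lies at chr17:34187331-34187580 on the minus strand, in the same MHC region, with no match. Psmb5 lies at chr14:54617996-54618245 on the minus strand, with an antioxidant response element core (TGACNNNGC, the letters known for Nrf1 and Nrf2) in capitals.
Psmb8: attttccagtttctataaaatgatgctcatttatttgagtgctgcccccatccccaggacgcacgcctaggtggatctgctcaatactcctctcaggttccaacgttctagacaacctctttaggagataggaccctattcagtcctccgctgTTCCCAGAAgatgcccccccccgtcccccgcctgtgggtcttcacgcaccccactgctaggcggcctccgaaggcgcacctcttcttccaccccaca
Psmb9: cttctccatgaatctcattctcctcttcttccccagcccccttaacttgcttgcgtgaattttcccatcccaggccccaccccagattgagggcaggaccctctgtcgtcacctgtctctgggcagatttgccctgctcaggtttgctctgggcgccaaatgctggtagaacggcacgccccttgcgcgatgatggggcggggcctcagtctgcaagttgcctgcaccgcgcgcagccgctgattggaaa
Psmb5: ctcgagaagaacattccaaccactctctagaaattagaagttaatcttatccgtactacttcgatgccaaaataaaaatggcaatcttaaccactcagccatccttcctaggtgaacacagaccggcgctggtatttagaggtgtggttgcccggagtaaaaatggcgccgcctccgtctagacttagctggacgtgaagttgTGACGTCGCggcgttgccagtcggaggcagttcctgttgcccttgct
The motifs were searched on both strands, and 39 of the 47 members had a window (42 windows in all). TTCNNNGAA was in 2 of 42 member windows (Psmb8 and Psmg1; 4.76%) and in 7.02% of all 32851 windows. TGACNNNGC was in 5 of 42 (Psmb5, Psmb6, Psmc6, Psmd12 and Psmd9; 11.9%) and in 10.2% of all. The interferon-stimulated element core (GAAA, any 2 bases, GAAA) was in 3 of 42 (Psmb3, Psmd4 and Psmd9; 7.14%) and in 2.98% of all, with no match in Psmb8, Psmb9 or Psmb10. A match is a description of the letters and not of binding, and no match says only that these letters are not in this window.

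In ASC, Psmb8 had 219 CPM in macrophage-like and 6.06 CPM in progenitor-like cells, 36.2-fold higher (33.3 to 39.5). Psmb9 had 65.7 CPM in macrophage-like and 2.68 CPM in progenitor-like cells, 24.6-fold higher (21.6 to 28.0). Psmb10 had 98.2 CPM in macrophage-like and 103 CPM in progenitor-like cells, so it did not share the pattern of the other immunoproteasome subunits. Its log2 ratio was -0.07, and 0.40 with TMM scaling. The activator genes Psme1 and Psme2, induced with the immunoproteasome by interferon gamma, were also higher in macrophage-like cells. Psme1 had 231 and 59.3 CPM, 3.90-fold higher (3.78 to 4.03), and Psme2 had 151 and 51.0 CPM, 2.96-fold higher (2.86 to 3.07).

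The share that the immune subunit took of its catalytic pair was read from summed UMIs with exact (Clopper-Pearson) binomial intervals. Psmb8 made up 53.8% (53.1 to 54.5) of the Psmb8 and Psmb5 UMIs in ASC macrophage-like cells. It made up 2.34% (2.08 to 2.62) in MPC, 1.01% (0.823 to 1.22) in myoblast, 1.86% (1.71 to 2.01) in ASC and 20.1% (17.9 to 22.6) in fiSC progenitor-like cells. Macrophage-like cells were thus highest and fiSC stood apart from the other progenitor-like classes. A share depends on both genes of its pair. Between ASC and fiSC progenitor-like cells, Psmb5 met the size rule as lower in fiSC, while the Psmb8 difference did not meet it. Psmb9 made up 11.9% (11.5 to 12.3) of its pair with Psmb6 in macrophage-like cells, and 0.630% in MPC, 0.209% in myoblast, 0.766% in ASC and 3.93% (3.09 to 4.92) in fiSC progenitor-like cells, the same order at the top. Psmb10 made up 44.7% (43.7 to 45.6) of its pair with Psmb7 in macrophage-like cells, and 16.1% in MPC, 16.2% in myoblast, 31.8% (31.2 to 32.3) in ASC and 4.69% (3.85 to 5.65) in fiSC progenitor-like cells. Here fiSC was lowest. By CPM, Psmb10 itself was nearly level in macrophage-like and ASC progenitor-like cells, while Psmb7 was lower in macrophage-like cells.

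**Figure D4:**
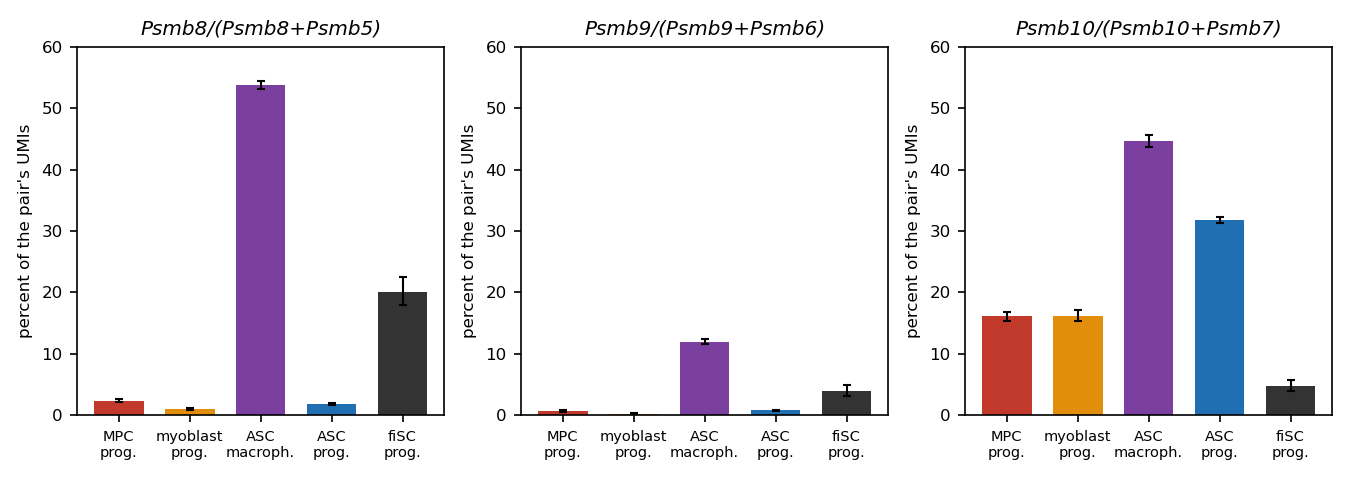
Share of each catalytic pair's UMIs that came from the immunoproteasome subunit (percent), in progenitor-like (prog.) cells of the 4 libraries and macrophage-like (macroph.) cells of ASC, with exact 95% binomial intervals that cover counting error only. Psmb8 (53.8%) and Psmb9 (11.9%) peak in macrophage-like cells and are next highest in fiSC, while Psmb10 is lowest in fiSC (4.69%).

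Among progenitor-like cells, Psmb10 was 18.8-fold higher in ASC than in fiSC (15.5 to 23.0), with 21.9 CPM in MPC, 26.6 CPM in myoblast, 103 CPM in ASC and 5.48 CPM in fiSC cells. It met the rule as higher in MPC and in myoblast against fiSC too (4.0-fold, 3.27 to 4.92, and 4.85-fold, 3.97 to 5.99), and as lower in MPC and in myoblast against ASC (4.71-fold and 3.88-fold). The fiSC value rests on 104 UMIs. Psmb8 had 4.0 CPM in MPC, 2.35 CPM in myoblast, 6.06 CPM in ASC and 12.4 CPM in fiSC cells. It was 5.28-fold lower in myoblast than in fiSC (4.17 to 6.73), which met the rule. In ASC against fiSC it did not, at a log2 ratio of -0.65, and this direction depends on the cells used: over all retained cells the log2 ratio was 1.96, and over cells without G2/M signal 0.19. Psmb9 had 1.03 CPM in MPC, 0.460 CPM in myoblast, 2.68 CPM in ASC and 3.85 CPM in fiSC cells, under the 10 CPM minimum in every one of them.

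Single cells were thinned to 2000 UMIs to set shares beside each other at 1 depth. A UMI of Psmb8 was found in 33.6% of macrophage-like, 1.84% of ASC progenitor-like and 2.02% of fiSC progenitor-like cells, and one of Psmb10 in 18.7, 17.3 and 1.10%. In MPC and myoblast progenitor-like cells the shares were 1.03 and 0.405% for Psmb8 and 4.53 and 5.09% for Psmb10. Without thinning, Psmb8 was found in 87.5% of macrophage-like, 19.5% of ASC progenitor-like and 9.31% of fiSC cells, at median depths of 15916.5, 47103 and 8723 UMIs. In differentiation-like cells at 2000 UMIs, the Psmb8 share was 0.0895% in MPC, and in myoblast it was 0 of 313 cells. The floor of 3 counts given to a 0 is 0.958% of these myoblast cells and is not an interval bound. The summed levels were 0.587 CPM in differentiation-like and 4.0 CPM in progenitor-like cells of MPC, and 0.368 CPM (0.0759 to 1.08) and 2.35 CPM (1.91 to 2.85) in myoblast. Cells under 2000 UMIs were left out: 23 in MPC, 1 in myoblast, 17 macrophage-like and 7 progenitor-like cells in ASC, and 44 in fiSC.

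Free RNA from macrophages can reach other droplets of the ASC library, so each level in ASC progenitor-like cells was set against the macrophage-like level. The 14 macrophage markers summed to 31302 CPM in macrophage-like cells, with 14 of 14 at 20 CPM or more, and to 190 CPM in ASC progenitor-like cells, with 1 of 14. The second sum is 0.606% of the first, and single markers ran from 0.382 to 0.843%. The sum was 10.0 CPM in MPC, 5.77 CPM in myoblast and 9.02 CPM in fiSC progenitor-like cells, where 4, 5 and 3 of the 14 markers were at 0. The 15 myogenic progenitor markers summed to 328 CPM in macrophage-like cells, and to 2350 CPM in MPC, 3624 CPM in myoblast, 1623 CPM in ASC and 8517 CPM in fiSC progenitor-like cells. Psmb8 stood at 2.76% and Psmb9 at 4.07% of their macrophage-like levels, while Psmb10 stood at 105%. Psme1 and Psme2 stood at 25.6 and 33.8%. All 5 thus exceeded the proportion of the markers, Psmb8 and Psmb9 by the least. The proportions differed between clusters: in cluster 10 Psmb8 stood at 14.2% and Psmb9 at 26.1%. In clusters 3, 4 and 9, Psmb8 stood at 1.71 to 2.34% and Psmb9 at 2.38 to 2.96%. The highest single marker was at 1.67% in cluster 10 and at 0.790 to 1.06% in the others. The part of free RNA in these levels was not tested.

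Psmb8 was unevenly spread over the 4 progenitor-like clusters of ASC. Cluster 10 (247 cells) had 31.3 CPM, and the others had 4.78, 5.13 and 3.74 CPM. In cluster 10 the macrophage marker sum was 245 CPM, against 241, 213 and 128 CPM in the others, and its Pax7 was 382 CPM. Psmb10 was lower there, at 52.0 CPM, the low end of the ASC progenitor-like range that reached 123 CPM. The fiSC clusters had 11.1 to 14.9 CPM of Psmb8 and 3.97 to 7.56 CPM of Psmb10, and the macrophage-like clusters had 182 to 277 CPM of Psmb8 and 78.6 to 122 CPM of Psmb10. No fiSC cluster overlapped any ASC progenitor-like cluster in Psmb10.

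**Figure D5:**
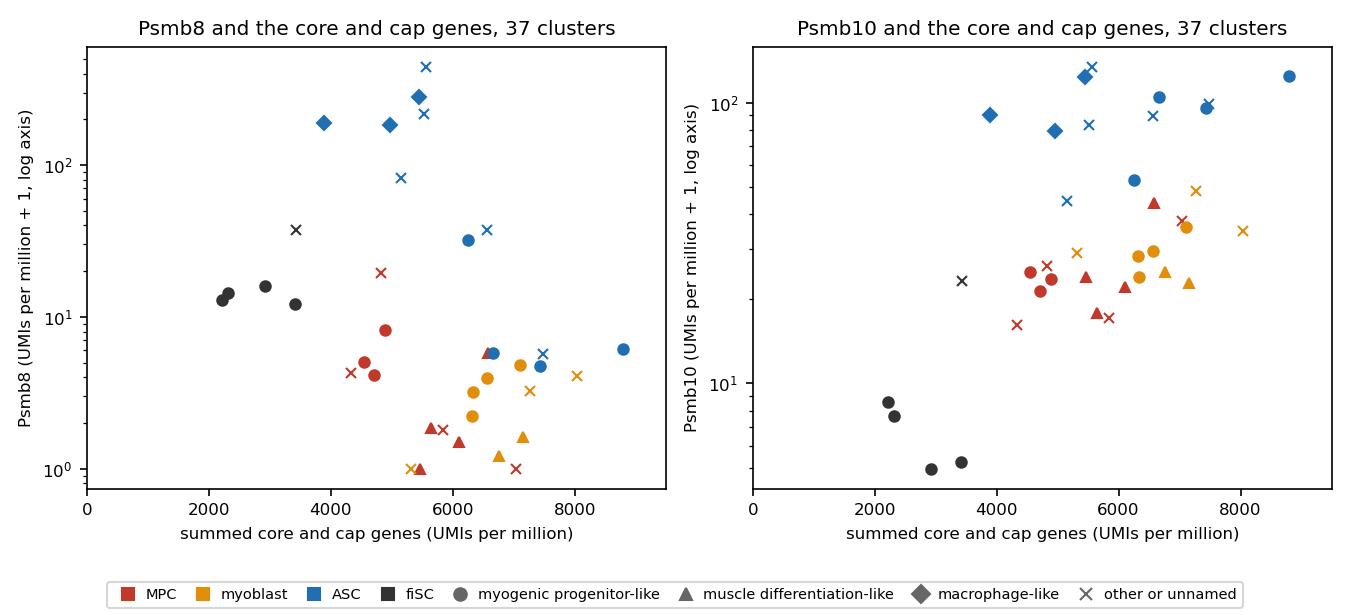
Each point is 1 of 37 clusters: summed level of the 31 constitutive genes (CPM) against the level of Psmb8 (left) and Psmb10 (right; both CPM + 1, log axes), with colour for the library and symbol for the class. Macrophage-like clusters are high in Psmb8 at sums of 3893 to 5448 CPM, and the fiSC progenitor-like clusters have sums of 2213 to 3420 CPM and the lowest Psmb10.

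The constitutive genes themselves were lower in macrophage-like cells, 4803 CPM against 7580 CPM in ASC progenitor-like cells, 1.58-fold (1.57 to 1.59). Of the 31 genes, 0 met the rule as higher and 9 as lower, the latter near the share of all genes given next. The median log2 ratio was -0.84, beside -0.32 for all 9055 genes measured, of which 20.9% met the rule as higher and 30.6% as lower. TMM scaling moved the median of all genes to 0.13 and that of the 31 genes to -0.37, with 2 lower. With doublets kept, 2 of the 31 genes were lower as well. Psmd7, a lid subunit, had 89.3 CPM in macrophage-like and 283 CPM in progenitor-like cells, 3.17-fold lower (3.07 to 3.28). Psmb6, Psmd8 and Psmd1 had the other direction. Psmb6, the constitutive partner of Psmb9, had 485 CPM in macrophage-like and 347 CPM in progenitor-like cells, 1.40-fold higher (1.38 to 1.42). Psmd8 had 308 and 259 CPM, and Psmd1 192 and 188 CPM. With TMM scaling small differences turned round, as for Psmd11 (log2 ratio -0.32, and 0.15 with TMM). Chaperones were lower by more: 4 of 7 met the rule, led by Psmg1 with 10.5 CPM in macrophage-like and 56.3 CPM in progenitor-like cells, 5.38-fold lower (4.92 to 5.90). Psmd10 (gankyrin) differed from them with 33.0 and 28.3 CPM. The third activator ring gene, Psme3, was 2.29-fold lower.

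Class I presentation and interferon genes were followed because the immunoproteasome works with them. In macrophage-like against progenitor-like cells, 9 of 12 presentation genes met the rule as higher and 0 as lower. B2m, the light chain of class I molecules, had 2846 and 115 CPM, and Tap1, the peptide transporter that lies beside Psmb9, had 40.6 and 2.85 CPM. Of 16 interferon pathway genes, 15 were higher and 0 lower, among them Irf7 (log2 ratio 4.55), a transcription factor of the interferon response, and Isg15 (4.15), a ubiquitin-like protein it induces. In ASC against fiSC, 0 of 10 presentation genes were higher and 6 lower, and 0 of 14 interferon genes were higher and 12 lower. H2-K1 had 39.4 CPM in ASC and 310 CPM in fiSC cells, Nlrc5, the activator of class I genes, 1.54 and 18.4 CPM, and Irf1 19.0 and 100 CPM. Psmb10, at 103 CPM in ASC and 5.48 CPM in fiSC cells, thus ran opposite to these lists. Against the same fiSC cells, 8 of 10 presentation and 10 of 14 interferon genes were lower in MPC, and 7 of 10 and 11 of 14 in myoblast, with 0 presentation genes higher in either. For comparison, the share of all genes that met the rule was 20.9% higher and 30.6% lower in macrophage-like against progenitor-like cells, and the share lower was 24.3% in ASC, 16.1% in MPC and 17.2% in myoblast against fiSC.

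Across the 36 clusters with 200000 UMIs or more, pooled over libraries, the constitutive genes varied together. The correlation of a gene's CPM with the sum of the other 30 had a median of 0.77. It ran from -0.29 for Psmd11 to 0.95 for Psmc5, with 28 of 31 at 0.5 or more. Besides Psmd11, Psmd14 (0.39) and Psmc6 (0.49) fell under 0.5. Against the sum of all 31, Psmb10 had 0.60, while Psmb8 had -0.25 and Psmb9 -0.21. Psme3 had 0.69, against -0.03 for Psme1, -0.03 for Psme2 and -0.39 for Psme4. Clusters of a library share its depth, handling and free RNA, so these values only describe which genes had like levels.

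The 2 subunits known from single tissues were near the detection limit. Psma8, a testis alpha subunit, had 7.05 CPM in MPC, 3.68 CPM in myoblast, 3.21 CPM in ASC and 0.685 CPM in fiSC progenitor-like cells. Psmb11, the thymus beta subunit, had at most 1.38 CPM, in ASC. Neither reached the 10 CPM minimum. For 8 members, exons overlap those of a neighbour in the GRCm38.p6 annotation (Psma4, Psmb7, Psmb9, Psmc3, Psmd1, Psmd13, Psme1 and Psmg3), and the strand of counting is not given in the sources used here, so reads of such neighbours may be shared; Psmb9 overlaps Tap1, which had the same direction.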

How the data were processed

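The deposited files are matrices of whole-number UMI counts, not normalized. The submitters' processing notes name STAR 2.7.10b and GRCm39. Gene annotation, UMI collapsing and cell calling are not given in the sources used here. From these counts, cells were kept with at least 1000 UMIs, 500 genes and at most 10% mitochondrial UMIs. Scrublet (scanpy 1.11.5) scored doublets. Its automatic threshold was used in ASC (4.48% of cells), and an expected rate of 0.8% per 1000 cells elsewhere, where the automatic threshold marked at most 0.207%; this removed 860 MPC, 59 myoblast, 302 ASC and 66 fiSC cells.

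Each library was clustered by itself on 2000 variable genes without the members and the myogenic and G2/M lists, with 30 components, 15 neighbours and Leiden resolution 0.5 (igraph 0.11.9, scikit-learn 1.9.0). Names ending in "-like" came from 14 marker lists, with at least 3 markers at 20 CPM, and naming details were set after the clusters were seen; 2412 MPC, 275 myoblast and 1352 ASC cells stayed unnamed. UMIs were summed per class (71933539 in MPC, 43468784 in myoblast, 93456207 in ASC and 18965323 in fiSC progenitor-like cells, and 49783932 in ASC macrophage-like cells) and scaled to CPM. The pseudocount was 5 CPM. Sums have exact Poisson intervals, ratios exact conditional binomial intervals and shares Clopper-Pearson intervals at 95% (scipy 1.17.1). A count of 0 was given a floor of 3 counts. Counts of the 22 symbols found on more than 1 of the 25828 features were added up.

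The members and lists were chosen with earlier results of these data known. Named genes were the catalytic pairs, the activators, the genes known from single tissues, the members past 2-fold (up to 8 in each direction) and the highest and lowest member of each role. Alternatives covered scaling (edgeR 4.0.16 TMM in R 4.3.3), pseudocount, minimum level, filters, doublets, clustering, a marker gate per cell, cell weighting, all retained cells and the cell cycle. The ratio and interval computations were tested on simulated data.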

Additional observations from a re-analysis of the deposited data

Results flagged for a closer look

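These clusters lie outside the classes compared, and in each the lower bound of the Psmb8 level exceeded the upper bound of fiSC progenitor-like cells, whose level was 12.4 CPM. Psmb8 reached 440 CPM in an unnamed ASC cluster of 121 cells led by MHC class II genes, with Psmb9 at 131 CPM and Psmb10 at 133 CPM, above the 219 CPM of Psmb8 in ASC macrophage-like cells. It reached 217 CPM in an endothelial-like ASC cluster of 46 cells, 80.9 CPM in a fibroblast-like ASC cluster of 12 cells and 36.0 CPM in another unnamed ASC cluster. In the fibroblast-like clusters of the other libraries it had 18.4 CPM in MPC and 36.3 CPM in fiSC, the last with 58 cells. The 14 macrophage markers summed to 22089 CPM in the ASC cluster led by MHC class II genes, 3487 CPM in the endothelial-like, 133 CPM in the fibroblast-like and 4006 CPM in the other unnamed ASC cluster, whose median depth was 1147 UMIs. They summed to 15.3 CPM in the fibroblast-like cluster of MPC and to 414 CPM in that of fiSC, against 6.45 to 13.9 CPM in the other fiSC clusters. Their part in the Psmb8 levels was not tested. The small clusters rest on few cells of 1 library each.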

How the results depend on the processing

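With 1 library per group, no setting can stand in for replicates. No paired analysis was possible because each group has 1 library. The median log2 ratio of the constitutive genes kept its sign in every setting tried: 1.50 to 1.94 in ASC against fiSC (13 settings), 0.69 to 0.94 in MPC against fiSC (11), 1.23 to 1.35 in myoblast against fiSC (11), -0.57 to -0.37 in MPC against myoblast (11) and -0.87 to -0.37 in macrophage-like against progenitor-like cells (12). The counts of members past 2-fold that moved by over 1.5 times were the following: lower in macrophage-like cells 14, against 6 with TMM scaling and 6 with doublets kept; lower in MPC than fiSC 1, against 2 with a pseudocount of 1 CPM, the strict filter, doublets kept, per-cell means or all retained cells; lower in myoblast than fiSC 2, against 1 with a 50 CPM minimum; lower in MPC than myoblast 1, against 3 in cells without G2/M signal. Past 1.5-fold, 12 constitutive genes were lower in MPC than myoblast, against 6 over all retained cells. Psmb8 in ASC against fiSC reversed to a log2 ratio of 1.96 with all retained cells and 0.19 without G2/M cells. All retained ASC cells include the macrophage-like cells, which held 10923 of their 12079 Psmb8 UMIs. The cause of the reversal without G2/M cells was not tested.

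Pair shares moved beyond counting error as follows. With the strict filter, Psmb8 was 1.36% and Psmb10 14.5% in myoblast. With doublets kept, Psmb8 was 2.04% in MPC, and Psmb8, Psmb9 and Psmb10 were 48.4, 11.1 and 42.7% in macrophage-like cells. With the marker gate, Psmb8 was 2.7% and Psmb9 1.11% in MPC. Without ASC cluster 10, a choice made after seeing the data, Psmb8 was 1.36% and Psmb9 0.50% in ASC. With all 3 pairs pooled, the share was 5.73% in MPC, 4.77% in myoblast, 32.5% in macrophage-like, 11.2% in ASC and 7.86% in fiSC progenitor-like cells. Shares of cells depend on depth: at 5000 UMIs and without thinning, Psmb8 was in 63.7 and 87.5% of macrophage-like, 3.58 and 19.5% of ASC and 5.84 and 9.31% of fiSC progenitor-like cells, Psmb9 in 26.9 and 56.7, 2.07 and 10.6, and 1.93 and 3.15%, and Psmb10 in 37.1 and 71.8, 38.9 and 89.6, and 2.49 and 4.42%. The immunoproteasome levels in fiSC progenitor-like cells rest on few UMIs (235 for Psmb8, 73 for Psmb9, 104 for Psmb10).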
